A study of Bos taurus with 12 samples.

Results

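The genes CDKN1A, TP53I3, GADD45B, TNFRSF1A, MDM2 and BAX, which belong to the p53 response and to death receptor signalling, were followed across bovine day 16 conceptuses and fibroblasts. They were taken as every probe set of the bovine genome array annotated to exactly 1 of these symbols. That gave 6 probe sets, 1 per gene, of 24016 on the array, and 6 genes of the 9155 with a symbol of their own. No level is compared between genes, since probe sets differ in how they bind, and signals are on a log2 scale.

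The p53 protein is a transcription factor that is stabilised by DNA damage and other stress, and its target genes slow the cell cycle, repair DNA or lead to apoptosis. CDKN1A, TP53I3, MDM2 and BAX are known as its targets, mostly from human and mouse cells, whereas GADD45B, a relative of the p53 target GADD45A, is better known as a stress gene induced by NF-kappaB and TGF-beta signalling. TNFRSF1A encodes TNF receptor 1, which carries a death domain and can start either NF-kappaB signalling or caspase-8 mediated death when TNF binds. In the elongating conceptus most cells are trophoblast, which proliferates fast in the days before attachment.

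SCNT conceptuses were clones, made by placing a fibroblast nucleus into an enucleated oocyte. IVP conceptuses came from in vitro fertilised and cultured embryos, and AI conceptuses from embryos obtained by artificial insemination. Embryos of all 3 kinds were placed in recipient cows on day 7, and elongated conceptuses of similar length were collected on day 16. FB were fibroblasts used as nuclear donors for SCNT, and each of the 4 groups had 3 arrays.

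The FB arrays carry the same tissue label as the conceptuses, but their marker genes were those of fibroblasts. Of 12 fibroblast markers on the array, 10 averaged above log2 4 in FB and 1, THY1, in each conceptus group. THY1 ran the other way, at 3.07 in FB and 5.11, 4.70 and 5.09 in SCNT, IVP and AI. Of 10 trophoblast markers, 8 averaged above log2 4 in each conceptus group and 0 did in FB. ELF5 and KRT8, both trophoblast markers, were low on every array. The labels do not say whether arrays of a group came from separate conceptuses, pools or cultures, so p-values measure the spread between these arrays, which may be technical. The share of probe sets above log2 4 was 26.5% to 27.7% per array, and arrays of 1 group correlated at 0.978 to 0.996 (Pearson's r over probe sets). Spike-in signal was highest on AI 2, IVP 2 and IVP 3, and the 3′ over 5′ gap of GAPDH, which widens when RNA is degraded, was widest on IVP 3 at 0.89.

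Of the 6 genes, CDKN1A, TP53I3 and TNFRSF1A were lower in both SCNT and IVP conceptuses than in AI conceptuses, and GADD45B was lower in SCNT than in AI conceptuses. The BAX differences did not pass and BAX varied widely between arrays of 1 group, and MDM2 had no signal above the floor of the array in any group. Against FB, the 3 conceptus groups had much lower CDKN1A and TNFRSF1A and higher TP53I3. The plot of signal by array shows these levels.

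**Figure D1:**
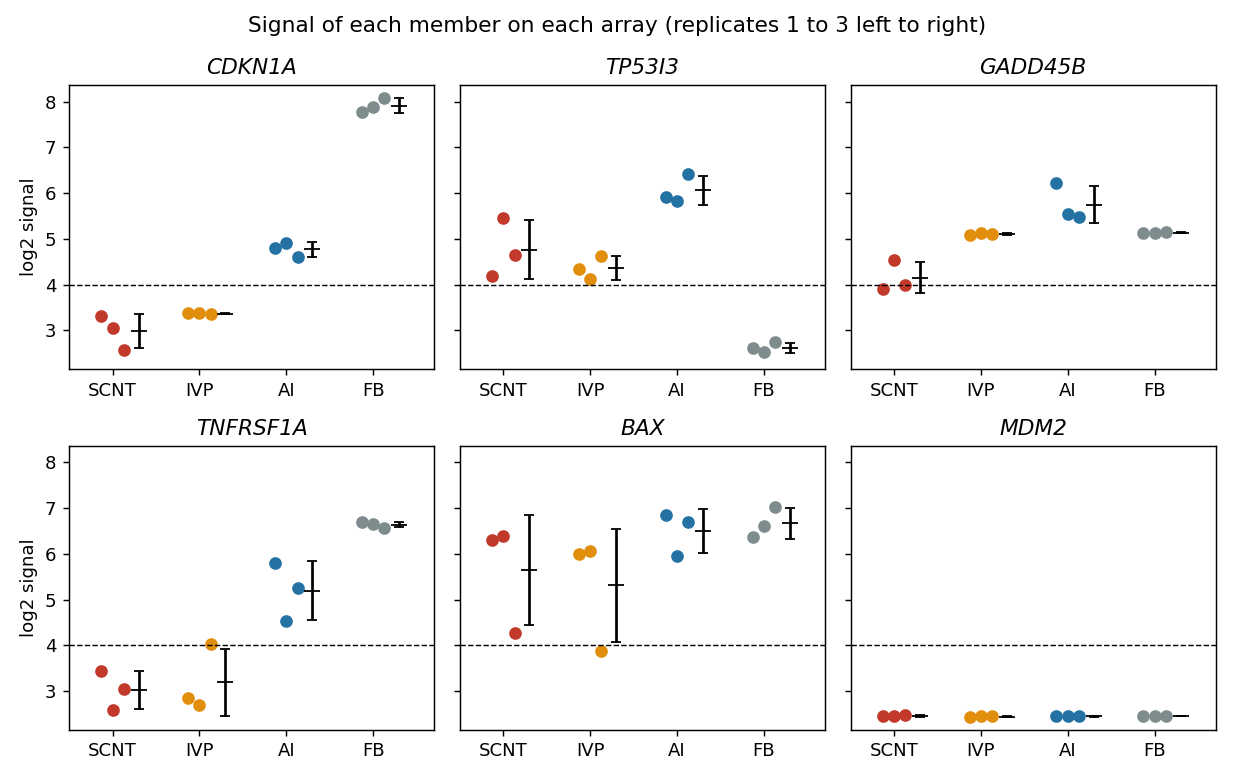
Log2 signal (vertical axis) of the 6 genes on each of 12 arrays, grouped as SCNT, IVP, AI and FB; dots are arrays, bars are the mean and SD of 3 arrays, and the dashed line is log2 4, above which a probe set had to lie on 3 arrays to be tested. CDKN1A and TNFRSF1A sit below the line on all SCNT arrays and above it on all AI arrays, BAX is low on SCNT 3 and IVP 3, and MDM2 is flat at about 2.45 to 2.49.

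Of the 6 probe sets, 5 lay above log2 4 on at least 3 conceptus arrays and were tested, with MDM2 the exception. CDKN1A passed solely through its 3 AI arrays and TNFRSF1A through the 3 AI arrays and IVP 3, so both had to be high in AI to be tested at all, and the counts that follow are a description.

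CDKN1A encodes p21, the cyclin-dependent kinase inhibitor through which p53 halts the cell cycle. Its probe set (NCBI gene 513497) read 3.31, 3.06 and 2.58 in SCNT, 3.38, 3.38 and 3.36 in IVP, 4.81, 4.92 and 4.60 in AI and 7.77, 7.88 and 8.08 in FB. All SCNT and IVP arrays lay below log2 4 and are given no order, all AI arrays lay above them, and all FB arrays above AI. CDKN1A averaged 2.99 ± 0.37 in SCNT and 4.78 ± 0.16 in AI (SD, n = 3 each), a log2 difference of -1.79 with a 95% interval from -2.18 to -1.40. That difference passed (limma adjusted p = 0.000102). Signals below log2 4 were treated as background, and with such values set to 4 CDKN1A was at least 1.71-fold lower in SCNT than in AI. In IVP it averaged 3.37 ± 0.01 (SD, n = 3), again at least 1.71-fold lower than in AI (limma adjusted p = 0.00066). Here and below, the adjusted p beside a fold given as at least is that of the fit without values set to 4. The fitted difference of CDKN1A between SCNT and IVP was -0.38 (limma adjusted p = 0.406), but it rests on values below log2 4 alone.

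TP53I3 encodes a quinone oxidoreductase linked in human cells to the oxidative stress that follows p53 activation. Its probe set (NCBI gene 508875) read 4.19, 5.47 and 4.65 in SCNT, 4.33, 4.13 and 4.63 in IVP, 5.91, 5.84 and 6.43 in AI and 2.61, 2.52 and 2.74 in FB. Every AI array lay above every other array, FB lay below all conceptuses, and SCNT and IVP overlapped. TP53I3 was 2.44-fold lower in SCNT than in AI, with a 95% interval from 1.56 to 3.82 (limma adjusted p = 0.00886). It was 3.23-fold lower in IVP than in AI, with an interval from 2.07 to 5.05 (limma adjusted p = 0.00354). SCNT and IVP differed by 0.40, with an interval from 1.18-fold lower to 2.07-fold higher in SCNT (limma adjusted p = 0.613). Both calls against AI ended when all 24016 probe sets were tested without the filter, at adjusted p = 0.112 for SCNT and 0.0724 for IVP. The differences are the same there, but limma's variance estimates and the adjustment both draw on all of these probe sets. Without the 3 arrays of high spike-in signal, which leaves 1 IVP array, TP53I3 differed by -1.83 between IVP and AI, with an adjusted p of 0.0614.

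GADD45B binds and activates the stress kinase MTK1, encoded by MAP3K4, and has been linked to both survival and death in mouse cells. Its probe set (NCBI gene 618405) read 3.91, 4.54 and 4.001 in SCNT, 5.08, 5.12 and 5.10 in IVP, 6.22, 5.54 and 5.49 in AI and 5.12, 5.13 and 5.15 in FB. SCNT lay below all other groups, AI above all others, and IVP and FB lay close together between them. GADD45B was 3.02-fold lower in SCNT than in AI, with a 95% interval from 2.17 to 4.21 (limma adjusted p = 0.000685). In IVP it was 1.57-fold lower than in AI, with an interval from 1.12 to 2.19, and did not pass (limma adjusted p = 0.063), although it passed at 0.0278 in the fit of all 12 arrays. SCNT was 1.93-fold lower than IVP, with an interval from 1.38 to 2.69, and also did not pass (limma adjusted p = 0.0965), with 0.0275 in the fit of all 12 arrays. Without AI 1, the brightest array for GADD45B, the log2 difference between SCNT and AI was -1.36 and still passed (limma adjusted p = 0.00205).

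TNFRSF1A encodes TNF receptor 1. Its probe set (NCBI gene 282527) read 3.44, 2.59 and 3.05 in SCNT, 2.85, 2.70 and 4.04 in IVP, 5.80, 4.53 and 5.26 in AI and 6.69, 6.65 and 6.57 in FB. All SCNT and IVP arrays lay below all AI arrays, and these below all FB arrays, while SCNT and IVP overlapped. TNFRSF1A averaged 3.03 ± 0.42 in SCNT and 5.20 ± 0.64 in AI (SD, n = 3 each), and was at least 2.30-fold lower in SCNT (limma adjusted p = 0.00301). It averaged 3.20 ± 0.74 in IVP (SD, n = 3), at least 2.28-fold lower than in AI (limma adjusted p = 0.00658). Without the filter, neither comparison with AI passed, at adjusted p = 0.0646 for SCNT and 0.11 for IVP. SCNT and IVP differed by -0.17 (limma adjusted p = 0.91), a difference between means below log2 4 whose sign turned without SCNT 2 or IVP 3.

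BAX encodes the pore-forming protein that permeabilises the outer mitochondrial membrane in apoptosis. Its probe set (NCBI gene 280730) read 6.31, 6.38 and 4.27 in SCNT, 5.99, 6.07 and 3.89 in IVP, 6.84, 5.94 and 6.69 in AI and 6.37, 6.61 and 7.03 in FB. SCNT 3 and IVP 3 were low, and the other 10 arrays lay between 5.94 and 7.03. The within-group SD of BAX over the conceptuses was 1.03, larger than that of 99.8% of the probe sets tested. BAX differed by -0.84 between SCNT and AI, with a 95% interval from -2.26 to 0.58 (limma adjusted p = 0.356). It differed by -1.18 between IVP and AI, with an interval from -2.60 to 0.24 (limma adjusted p = 0.228). Without SCNT 3 the difference between SCNT and AI was -0.15, and without IVP 3 that between IVP and AI was -0.46, so 1 array in each group carried most of the difference.

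MDM2 encodes the ubiquitin ligase that p53 induces and that in turn degrades p53. Its probe set (NCBI gene 540378) read between 2.45 and 2.49 on all 12 arrays, close to the lowest value of the table, 2.42. A probe set at the floor gives no level, so no fold change or order between groups is given for MDM2, and its expression cannot be judged from this probe set.

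Among the 5 tested genes, 4 were lower and 0 higher in SCNT than in AI, where 11.4% of 6892 probe sets were called lower, 16.2% higher and 27.6% in either direction. For IVP against AI, 3 were lower and 0 higher, beside 9.49% of all probe sets called lower, 8.42% called higher and 17.9% called in either direction. For SCNT against IVP 0 of 5 passed in limma, beside 0.58% of all probe sets, and 1, GADD45B, had an unadjusted p under 0.05. The median log2 difference of the 5 genes was -1.59 for SCNT against AI, beside 0.08 over all probe sets tested, and -1.41 for IVP against AI, beside 0.02. Groups did not overlap for 4 of 5 genes in each comparison with AI, beside 44.3% of probe sets for SCNT against AI and 37.4% for IVP against AI. Both comparisons use the same 3 AI arrays, so they are not independent of each other. CDKN1A and TNFRSF1A had to be high in AI to be tested. The genes were also chosen with earlier results of these data known, so these counts and medians are a description.

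**Figure D2:**
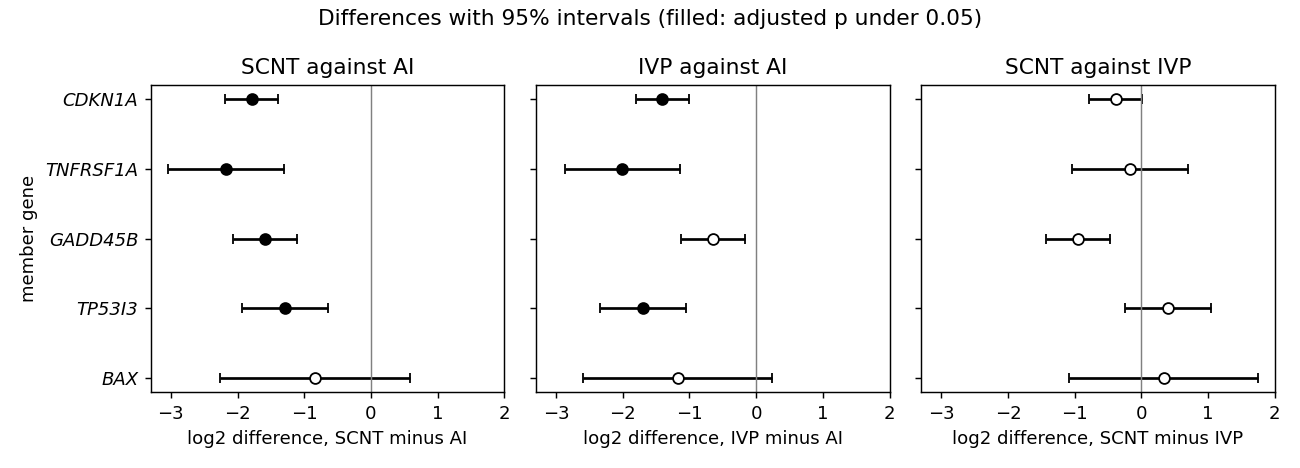
Log2 differences (horizontal axes) of the 5 tested genes for SCNT against AI, IVP against AI and SCNT against IVP, from the limma fit of 9 conceptus arrays; dots are differences, bars are 95% intervals and filled dots have an adjusted p under 0.05. CDKN1A, TNFRSF1A, GADD45B and TP53I3 lie left of 0 with filled dots for SCNT against AI, GADD45B is open for IVP against AI at -0.65, and no dot is filled for SCNT against IVP.

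Some markers of several cell types differed between the conceptus groups, though not all in the same groups. The summed linear signal of 10 trophoblast markers was 50268 to 58903 in SCNT, 52331 to 55674 in IVP and 44116 to 51094 in AI. KRT18, a keratin, averaged 13.10 in SCNT, 13.01 in IVP and 12.22 in AI. PAG11, a pregnancy-associated glycoprotein, averaged 13.15, 13.003 and 11.94 in the same groups, and PTGS2 11.65, 11.54 and 11.18. Other trophoblast markers were not clearly lower in AI. IFNT2 averaged 13.26, 13.29 and 13.25, PAG2 12.58, 12.71 and 12.69, and TFAP2A 6.89, 6.59 and 6.88. TKDP1 averaged 13.50, 13.55 and 13.62 and SSLP1 12.60, 12.56 and 12.81, both highest in AI. Over 10 leukocyte markers the summed linear signal was 68.8 to 134.9 in SCNT, 70.7 to 158.5 in IVP, 693.1 to 1133 in AI and 55.7 to 57.0 in FB. The AI signal came from ITGB2, RAC2 and CD48, whose AI means were 8.47, 8.70 and 5.92, while the defining markers PTPRC, CD52, CORO1A, LCP1, TYROBP and CD3E lay near the floor on every array. Of 5 erythroid markers, ALAS2 alone averaged above log2 4, and in AI alone, at 6.80. Of 7 endometrial markers, 0 averaged above log2 4 in any group. The summed signal of 7 hypoblast and yolk sac markers was 3093 to 4009 in SCNT, 5330 to 6476 in IVP and 5520 to 9125 in AI. Among these markers AHSG averaged 7.17 in SCNT, 10.55 in IVP and 11.68 in AI, and FGG 2.58, 3.55 and 5.20. APOA1 averaged 11.65, 12.07 and 11.94 in the same groups, and GATA6 7.68, 7.73 and 7.83. GATA4 and AFP lay below log2 4 on every array, and TTR averaged above it in FB alone, at 6.75. The part of these cell types in the AI level of CDKN1A, TP53I3, GADD45B and TNFRSF1A was not tested, and in whole conceptuses fewer cells of a type and less RNA per cell cannot be told apart.

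Against FB, the donor cells of the SCNT embryos, CDKN1A was at least 15.0-fold lower in SCNT (limma adjusted p = 5.12e-11), at least 15.0-fold lower in IVP (1.14e-10) and 8.78-fold lower in AI (3.72e-09). TNFRSF1A was at least 6.21-fold lower in SCNT (limma adjusted p = 2.03e-06), at least 6.16-fold lower in IVP (3.29e-06) and 2.71-fold lower in AI (0.00363). Both genes were highest in the cultured fibroblasts and, among the conceptuses, closest to that level in AI. The AI call of TNFRSF1A ended with spike-in signal as a covariate, at adjusted p = 0.0688. Spike-in signal was lower on every FB array than on any conceptus array, so that fit cannot separate it from group. TP53I3 ran the other way, with FB near the floor at 2.63 ± 0.11 (SD, n = 3).

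TP53I3 was at least 1.70-fold higher in SCNT (limma adjusted p = 1.48e-05), at least 1.29-fold higher in IVP (9.09e-05) and at least 4.16-fold higher in AI than in FB (2.07e-07). The IVP call of TP53I3 ended when all values below log2 4 were set to 4, at adjusted p = 0.26. GADD45B was 1.97-fold lower in SCNT than in FB, with an interval from 1.47 to 2.66 (limma adjusted p = 0.000586). In IVP it differed from FB by -0.03 (limma adjusted p = 0.877), and in AI it was 1.53-fold higher, with an interval from 1.14 to 2.06 (limma adjusted p = 0.0129). That AI call ended without AI 1, at adjusted p = 0.0535, and without the filter, at 0.0516. BAX differed by -1.02 between SCNT and FB, -1.35 between IVP and FB and -0.18 between AI and FB, and none passed (limma adjusted p = 0.152, 0.0652 and 0.81). The IVP difference passed at 0.043 without IVP 1 and at 0.0374 without IVP 2, the arrays of the higher IVP signals.

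Calls against FB were frequent across the whole array. Of the 5 tested genes, 4 passed for SCNT, 3 for IVP and 4 for AI, beside 79.9%, 78.7% and 77.2% of 8164 probe sets.

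Genes that work beside these 6 were read from 9 lists with 162 names, of which 104 had a probe set of a single symbol and 58 passed the filter among conceptuses. For SCNT against AI, 6 of the 58 genes were higher, 5 lower and 47 did not pass, beside 27.6% of all probe sets called. Their median log2 difference was 0.01, beside 0.08 over all probe sets tested. For IVP against AI, 2 were higher and 3 lower, beside 17.9% of all probe sets called, and for SCNT against IVP 0 passed in limma, while 7 had an unadjusted p under 0.05. The plot of the lists shows most of these genes near 0.

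**Figure D3:**
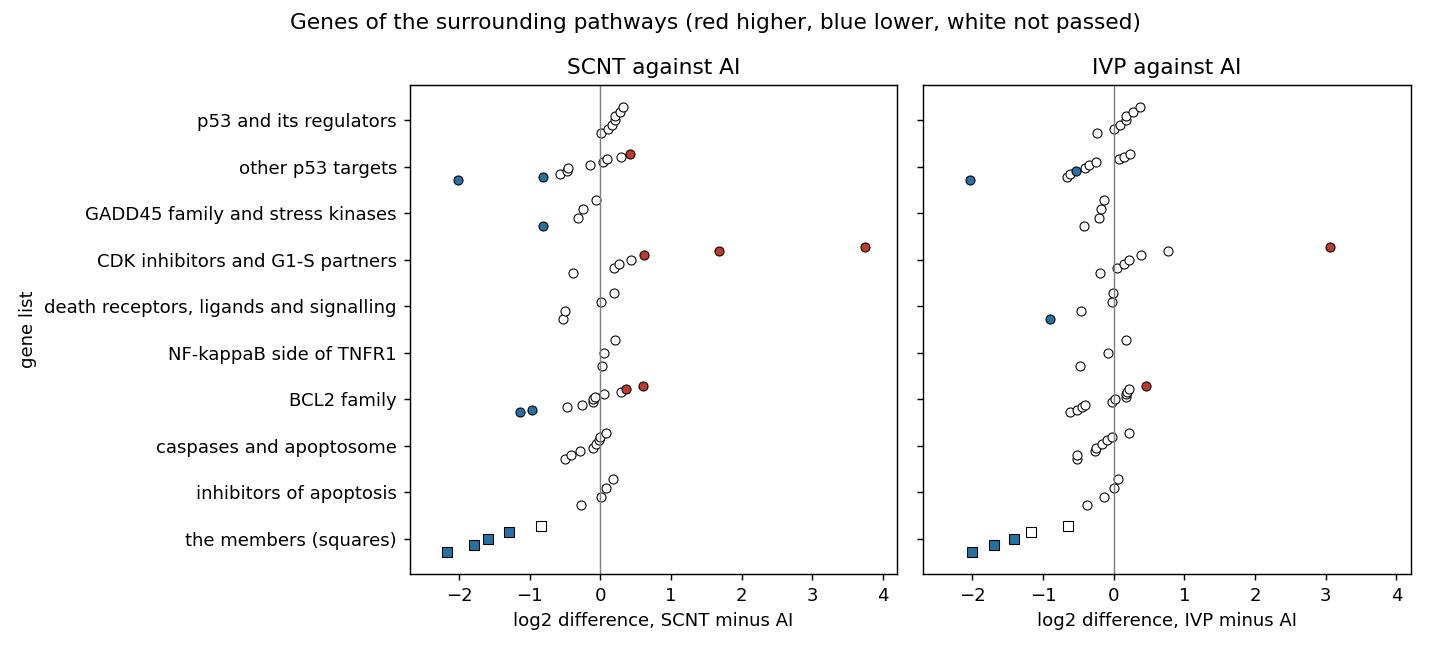
Log2 differences (horizontal axes) of the tested genes of 9 lists (vertical axis) for SCNT against AI and IVP against AI, each gene read from its brightest probe set; red is higher and blue lower at a limma adjusted p under 0.05, white did not pass, and squares in the bottom row are the 5 tested genes of the group itself. Most circles lie within 1 unit of 0, DRAM1 lies near -2 in both panels and CCND2 above 3 in both.

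Of 16 names listed for p53 and its regulators, 8 had a probe set of a single symbol and 7 were tested. These were CHEK1, PPM1D, RCHY1, TP53BP1, RPL5, RPL11 and RPL23, and the kinases ATM, ATR and CHEK2 had no such probe set. Of the 7 tested genes, 0 passed in limma in any conceptus comparison, and 1 had an unadjusted p under 0.05 in IVP against AI. MDM4, a relative of MDM2, and CASP8, the initiator caspase below TNF receptor 1, had no probe set of a single symbol in the annotation used. Among 10 other p53 targets, 1 was higher and 2 were lower in SCNT than in AI, beside 16.2% and 11.4% of all probe sets. DRAM1, a lysosomal protein that links p53 to autophagy, averaged 5.56 ± 0.21 in SCNT, 5.53 ± 0.36 in IVP and 7.57 ± 0.46 in AI (SD, n = 3 each). DRAM1 was 4.03-fold lower in SCNT than in AI (limma adjusted p = 0.000319) and 4.10-fold lower in IVP than in AI (0.000476). TP53INP1, a stress-induced cofactor of p53, was 1.75-fold lower in SCNT than in AI (limma adjusted p = 0.0183), and this call ended without SCNT 1, at 0.0581, without AI 3, at 0.0614, and without the filter, at 0.139. THBS1, a secreted inhibitor of vessel growth, was 1.33-fold higher in SCNT than in AI (limma adjusted p = 0.039), and this call ended whichever of the 6 arrays compared was left out, with adjusted p up to 0.119. PERP, a desmosome and apoptosis gene, was 1.45-fold lower in IVP than in AI (limma adjusted p = 0.0406), and this call ended in 4 of the 6 fits that left out 1 array, with adjusted p from 0.0821 to 0.131.

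Several genes close to these in name or role were at or near the floor. GADD45A, the family member best known as a p53 target, lay between 3.66 and 4.07 in the conceptuses and between 5.03 and 5.84 in FB. FAS, another death receptor and p53 target, lay between 3.57 and 4.15 in the conceptuses and between 6.02 and 6.20 in FB. GADD45A was at least 2.85-fold lower in SCNT than in FB and FAS at least 4.37-fold lower (limma adjusted p = 1.13e-06 and 6.29e-09). Neither gene was tested among the conceptuses. TNFRSF1B, the other TNF receptor, lay between 2.45 and 2.58, and BCL2L1, a survival gene, between 2.64 and 3.02 on all arrays.

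Of 4 tested genes of the GADD45 family and stress kinase list, JUN, the AP-1 subunit, was lower in SCNT than in AI. It was 1.75-fold lower (limma adjusted p = 0.03), a second probe set of JUN was also lower, and the call ended in 4 of the 6 fits that left out 1 array, with adjusted p from 0.0541 to 0.105, and without the filter, at 0.204. Of 4 death receptor genes tested, TNFRSF21, death receptor 6, was 1.86-fold lower in IVP than in AI (limma adjusted p = 0.0323), and this call ended in 4 of the 6 fits that left out 1 array, with adjusted p from 0.0906 to 0.095. On the NF-kappaB side of TNF receptor 1, 0 of 3 tested genes passed in limma in any conceptus comparison, with 1 at an unadjusted p under 0.05 in IVP against AI and 1 in SCNT against IVP.

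The inhibitors and partners of cyclin-dependent kinases, the machinery on which p21 acts, had 3 of 7 tested genes higher and 0 lower in SCNT than in AI, beside 16.2% of all probe sets called higher. CCND2, cyclin D2, averaged 6.30 ± 0.22 in SCNT, 5.62 ± 0.25 in IVP and 2.55 ± 0.04 in AI (SD, n = 3 each). With AI at the floor, CCND2 was at least 4.93-fold higher in SCNT (limma adjusted p = 3.78e-07) and at least 3.07-fold higher in IVP (2.3e-06), so it ran opposite to CDKN1A. CCND2 passed the filter solely through its SCNT and IVP arrays. It had to be high outside AI to be tested at all, as CDKN1A had to be high in AI, so the count of 3 is a description. CDKN1C encodes p57, an inhibitor related to p21, and averaged 8.67 ± 0.13 in SCNT, 7.76 ± 0.59 in IVP and 6.99 ± 0.25 in AI (SD, n = 3 each). It was 3.20-fold higher in SCNT than in AI (limma adjusted p = 0.00127), while IVP did not pass (0.0621). CCND3, cyclin D3, was at least 1.27-fold higher in SCNT than in AI (limma adjusted p = 0.0406), and its call ended in 4 of the 6 fits that left out 1 of the arrays compared, with adjusted p from 0.0815 to 0.156. The CCND3 call also ended with values below log2 4 set to 4, at adjusted p = 0.14, and without the filter, at 0.215. With the spike-in, GAPDH and XIST covariates it ended at 0.0683, 0.0671 and 0.116.

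In the BCL2 family, to which BAX belongs, 2 of 11 tested genes were higher and 2 lower in SCNT than in AI. Over all probe sets, 16.2% were called higher and 11.4% lower. BNIP3L, a mitophagy receptor, averaged 6.30 ± 0.21 in SCNT and 7.45 ± 0.17 in AI (SD, n = 3 each), and was 2.21-fold lower (limma adjusted p = 0.00454). BOK, a pore-forming relative of BAX, was 1.95-fold lower in SCNT than in AI (limma adjusted p = 0.00535). Without the filter, BNIP3L and BOK did not pass, at adjusted p = 0.0636 and 0.0627. BCL2, the survival gene that opposes BAX, was 1.52-fold higher in SCNT than in AI (limma adjusted p = 0.00889) and 1.38-fold higher in IVP than in AI (0.0408), but its other tested probe set had the opposite sign in both, and the IVP call ended in 5 of the 6 fits that left out 1 array, with adjusted p from 0.0532 to 0.126. VDAC2, a mitochondrial channel that binds BAX and BAK1, was 1.28-fold higher in SCNT than in AI (limma adjusted p = 0.0444), and this call ended whichever of the 6 arrays compared was left out, with adjusted p up to 0.138. MCL1, a survival gene, differed by -0.07 between SCNT and AI and by -0.03 between IVP and AI (limma adjusted p = 0.793 and 0.934), and was 2.65-fold lower in SCNT than in FB (4.79e-06). Among 8 tested caspase and apoptosome genes and 4 inhibitors of apoptosis, 0 passed in limma in any conceptus comparison, and 1 of each list had an unadjusted p under 0.05, in IVP against AI.

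The genes whose signal ran most like each of the 5 over the 9 conceptus arrays are given with Pearson's r, as a description of arrays that share depth of hybridisation and group. CDKN1A ran most like H3-3A, CD63 and HIBADH, each at 0.97. TP53I3 ran most like EPAS1 at 0.96, CDH1 at 0.95 and ARF2 at 0.94, and GADD45B most like TSPAN33 at 0.96 and SLC3A2 and MYO1D, both at 0.94. TNFRSF1A ran most like PAOX and KDM6A, both at 0.97, and LRATD1 at 0.96. Between the 5 genes r was highest for CDKN1A and TNFRSF1A at 0.86 and lowest for TNFRSF1A and BAX at 0.29. CDKN1A lay below log2 4 on all SCNT and IVP arrays, and TNFRSF1A on all of these but IVP 3. The r values of both genes thus rest largely on AI against background signal, and both had to be high in AI to be tested.

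BAX ran most like SLC25A6, a mitochondrial ADP/ATP carrier, and TMED9, a cargo receptor of the secretory pathway, both at 0.97, and USP11, a ubiquitin protease, at 0.94. These 3 genes were chosen for their likeness to BAX on these arrays, so a shared dip on SCNT 3 and IVP 3 follows from the choice. SLC25A6 read 9.65 on SCNT 3 and 9.69 on IVP 3, and TMED9 read 7.58 and 7.75 on the same arrays. The GAPDH gap was 0.38 on SCNT 3 and 0.89 on IVP 3, and the spike-in mean was 7.42 on SCNT 3 and 8.24 on IVP 3. The part of RNA quality and hybridisation in the BAX values was not tested.

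**Figure D4:**
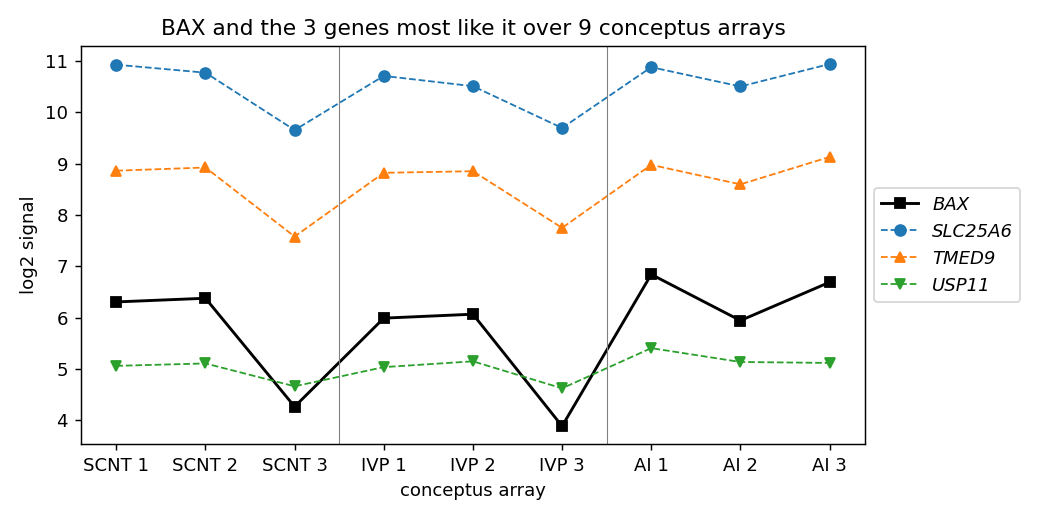
Log2 signal (vertical axis) of BAX and of the 3 genes with the highest Pearson's r to it on the 9 conceptus arrays (horizontal axis, grouped as SCNT, IVP and AI); dashed and solid lines join the arrays of a gene as a guide to the eye. All 4 genes dip on SCNT 3 and IVP 3, BAX to 4.27 and 3.89.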

How the data were processed

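Total RNA of conceptuses and fibroblasts was amplified, labelled with biotin and hybridised to Affymetrix bovine arrays, per the labels' protocols. The deposited values are log2 signals made by the authors. GCRMA and limma are named per the submitters' processing notes, though the sources used here give neither their versions nor their roles. The lowest value was 2.42 and the highest 13.66, and 36.8% of values sat within 0.01 of the lowest. After 112 control probe sets were left out, 24016 remained, of which 13292 had 1 gene symbol and 86 several. Gene symbols were those of the array annotation, and a gene ID in a current gene table, used for names only, was found for 13263 of them. All value columns were used (0 left out), and no coordinates or sequences.

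The 6 genes and all lists were chosen with earlier results of these data known. Tested were probe sets with signal above log2 4 on 3 or more arrays of a fit. The test was that of limma 3.58.1 in R 4.3.3, two-sided, with a coefficient for each group. The fit of 9 conceptus arrays had 6892 probe sets and 6 residual degrees of freedom. The fit of all 12 arrays, used for comparisons with FB, had 8164 and 8. Benjamini-Hochberg adjustment ran over all probe sets of a comparison, and a change was called at an adjusted p under 0.05. Intervals are 95%, and the median standard error of SCNT against AI was 0.16. For a group averaging under log2 4, lower values were raised to 4 before the fold was taken, which makes the fold a lower bound. The adjusted p printed beside such a fold is from the fit without raised values.

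The text names every probe set of the 6 genes, up to 4 called genes of each pathway list per conceptus comparison (read from the brightest probe set), and MDM4, TNFRSF1B, FAS, CASP8, BCL2L1, MCL1 and GADD45A whether called or not, while 1 further gene of that rule is not reported here. For likeness it names the 3 genes of highest Pearson's r. Alternatives were other filters, thresholds, floors, centring, variance models and sets of arrays, a replicate block, and fits that left out 1 array at a time. Covariates for spike-in, GAPDH and XIST signal and the omission of 3 arrays of high spike-in signal were chosen after seeing the data. XIST read 2.42 on every SCNT array, 4.79, 4.88 and 2.57 in AI, and 3.9998, 2.42 and 6.55 in IVP. The XIST covariate is thus partly tied to group. The GAPDH gap was 0.01 to 0.06 on FB arrays and 0.21 to 0.89 on conceptus arrays. Spike-in signal was 6.93 to 7.19 on FB arrays and 7.35 to 8.30 on conceptus arrays. Neither range overlaps, so both covariates are tied to group in comparisons with FB. The procedure was tested on simulated arrays with the probe set means and within-group spreads of the 9 conceptus arrays, and changes were put into SCNT. Changed probe sets were drawn from those averaging above log2 5. The shares found therefore do not apply to genes nearer the floor, such as CDKN1A and TNFRSF1A. In 5 runs, each with 200 changed probe sets among 6892, it found 37.4% of 1.5-fold changes, 78.7% of 2-fold changes and 97.6% of 4-fold changes, and 3.53% of its calls were false.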

Additional observations from a re-analysis of the deposited data

How the results depend on the processing

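Of the 5 tested genes, the 4 calls for SCNT against AI became 2 and the 3 for IVP against AI became 1 without the filter, and likewise with a filter at log2 5, under which CDKN1A and TNFRSF1A were not tested. The 0 for SCNT against IVP became 1, GADD45B, in the fit of all 12 arrays and at an adjusted p under 0.10. These 3 counts were unchanged when any 1 array was left out. CDKN1A and GADD45B kept their call for SCNT against AI in every alternative that gave a value, with adjusted p up to 0.00801 and 0.0227. The GAPDH covariate, which is tied to group in comparisons with FB, ended the TP53I3 call in IVP against FB (0.0744). The XIST covariate ended the GADD45B call in AI against FB (0.0536).

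Replicate numbers are shared by the groups but did not pair the arrays: deviations from group means correlated between -0.15 and 0.14 in 9 same-numbered conceptus pairs, with 2 over 0.1, and 4 of 18 best matches fell on the same number. A replicate block left the counts at 4, 3 and 0 among conceptuses and 4, 3 and 4 for SCNT, IVP and AI against FB. It ended the calls of THBS1 and CCND3 (both 0.0548) and VDAC2 (0.0645) in SCNT against AI and of BCL2 (0.0719) in IVP against AI.

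Signs turned for differences that had not passed. In SCNT against IVP, TNFRSF1A ran from -0.42 to 0.25 with 1 array left out (0.047 without SCNT 2), and was 0.18 without the high spike-in arrays and 0.20 and 0.26 with the GAPDH and XIST covariates. BAX there ran from -0.38 to 1.03 (-0.029 without SCNT 2), and was -0.34 without those arrays and -0.10, -0.36 and -0.50 with the spike-in, GAPDH and XIST covariates. Against FB, where the spike-in and GAPDH covariates are tied to group, the GAPDH covariate turned BAX to 0.085 in SCNT and 0.46 in IVP. In AI against FB, BAX ran from -0.35 to 0.098 (0.0066 without FB 3), and was 0.098 without the high spike-in arrays and 0.39, 0.59 and 0.55 with the 3 covariates. GADD45B in IVP against FB was 6.51e-05 with median-centred arrays and 0.074 with the spike-in covariate. With 1 array left out, MCL1 ran from -0.18 to 0.10 in SCNT against AI, -0.13 to 0.062 in IVP against AI (0.11 with the spike-in covariate) and -0.15 to 0.13 in SCNT against IVP. The cause was not tested.

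Over all probe sets, calls numbered 1902 for SCNT against AI (918 to 2567 over the alternatives), 1234 for IVP against AI (484 to 1789) and 40 for SCNT against IVP (5 to 136). Lower bounds move with the floor: for SCNT against AI, TNFRSF1A was at least 1.15-fold lower with a floor at log2 5, and CDKN1A at least 3.14-fold lower at log2 3. With values set to 4, CDKN1A gave no value for SCNT against IVP. Changes of 1.5-fold were mostly missed in simulation.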
